A study of Mus musculus with 10 samples.

Results

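The 9 genes described here belong to fat storage and fatty acid uptake: Lpl, Cd36, Fabp4, Pparg, Plin1, Lipe, Pnpla2, Cfd and Adipoq. They were chosen by name, all 9 were among the 17737 genes of the deposited count table, and 7 of them had enough reads to be tested. RNA was sequenced from whole tumors taken on day 11 after B16-F10 melanoma cells had been placed under the skin of C57BL/6 mice, in the right flank. These cells had been made to overexpress the cytokine IL-18, either as wild type (WT tumors, numbered 2 to 6) or with the aspartate at position 69 replaced by alanine (D69A tumors, numbered 1 to 5), with 5 tumors in each group. All hosts were of the same strain and both cell lines carried an IL-18 transgene, so no tumor without overexpression was compared. The labels state neither the promoter of the transgene nor whether a line was 1 clone, and they give no age for the mice. Whether every tumor had a host of its own is not stated either, and p-values therefore cover only the spread between the samples, which may be technical. Total counts per tumor lay between 25904345 and 37578722, lowest in WT tumor 6. The genes lie on 7 chromosomes, and in bulk tissue fewer cells of a type and less RNA per cell cannot be told apart.

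Adipocytes store fatty acids as triglyceride in lipid droplets. Lipoprotein lipase, bound to the wall of capillaries, frees fatty acids from circulating triglyceride, the scavenger receptor CD36 helps them across the membrane, and fatty acid binding protein 4 carries them inside the cell. The nuclear receptor PPAR gamma drives the fat cell program and forms a heterodimer with a retinoid X receptor on direct repeats of a short half-site. Stored fat is released by 2 lipases under the control of perilipin 1, and fat cells secrete adiponectin and complement factor D, also called adipsin. Lpl, Cd36, Fabp4 and Pparg are not restricted to fat: macrophages can express all of them, and capillary endothelium expresses Cd36 and Fabp4. Adipoq, Plin1 and Cfd are far more typical of fat cells.

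Promoter windows are shown for Adipoq, Cd36 and Pparg, from the fat secretion, uptake and regulator roles, and for Pnpla2, the tested gene whose level did not pass the threshold. The RefSeq table (GRCm38.p6) held starts for 7 of the 9 genes, 10 windows in all. Each window covers the 250 bases before the annotated start, 5′ to 3′ on the gene's strand. The Adipoq window is chr16:23146286-23146535 on the plus strand, the Cd36 window chr5:17835897-17836146 on the minus strand and the Pnpla2 window chr7:141454938-141455187 on the plus strand. The Pparg window, chr6:115421816-115422065 on the plus strand, precedes a start inside the gene. The Cd36 window also lies inside its annotated gene (17781690 to 17888801). Capitals mark matches on either strand to CCAAT or to the half-site AGGTCA.
Adipoq: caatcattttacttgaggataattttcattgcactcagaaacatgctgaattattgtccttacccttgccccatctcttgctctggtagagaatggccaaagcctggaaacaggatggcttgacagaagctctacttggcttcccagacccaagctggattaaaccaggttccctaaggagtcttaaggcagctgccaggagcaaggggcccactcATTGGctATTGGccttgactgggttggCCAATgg
Cd36: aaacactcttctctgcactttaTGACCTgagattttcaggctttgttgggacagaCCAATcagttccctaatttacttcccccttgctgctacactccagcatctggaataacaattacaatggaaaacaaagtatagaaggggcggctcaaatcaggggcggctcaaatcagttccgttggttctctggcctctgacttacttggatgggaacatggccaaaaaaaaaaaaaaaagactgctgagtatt
Pparg: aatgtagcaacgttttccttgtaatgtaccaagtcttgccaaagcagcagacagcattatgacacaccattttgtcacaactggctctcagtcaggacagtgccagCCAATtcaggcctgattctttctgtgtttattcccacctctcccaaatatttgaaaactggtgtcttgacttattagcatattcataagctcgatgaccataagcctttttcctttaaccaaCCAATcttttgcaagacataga
Pnpla2: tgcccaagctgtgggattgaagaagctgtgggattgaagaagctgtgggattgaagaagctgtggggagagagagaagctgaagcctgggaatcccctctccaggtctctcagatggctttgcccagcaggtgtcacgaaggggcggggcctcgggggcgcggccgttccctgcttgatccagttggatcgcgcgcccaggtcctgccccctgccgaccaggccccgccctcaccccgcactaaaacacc
Across the 10 windows, AGGTCA occurred in 3 (1 of Cd36 and 2 of Pparg), against 14.0% of 32851 mouse promoter windows of the same length. CCAAT occurred in 4 windows (Adipoq, Cd36 and 2 of Pparg), against 33.8% of all, and TATAAA in 1 Pparg window, against 12.4%. The Adipoq window held 3 CCAAT matches, which began 34, 27 and 7 bases before the start. A direct repeat of AGGTCA with 1 base between the copies was in none of the 10 windows and in 0.0335% of all. A match describes letters only, and the Pnpla2, Plin1, Cfd and Lipe windows had none of these. The read counts are per gene, so they sum over the 3 listed starts of Pparg.

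Setting D69A against WT tumors asks whether transcripts of these genes depend on the form of IL-18 that the implanted cells made. The genes of fatty acid uptake, Lpl, Cd36 and Fabp4, and the regulator Pparg were 2.96-fold to 3.87-fold lower in D69A tumors. Lipe was 1.61-fold lower, Cfd 9.55-fold lower, and Pnpla2 did not pass the test. Of the 7 tested genes 6 fell and 0 rose (quasi-likelihood test of edgeR, p adjusted by Benjamini-Hochberg over every gene tested, threshold 0.05). The count of rises was also 0 at an unadjusted p under 0.05, with DESeq2 and with limma-voom. Over all 13798 genes tested, 24.7% were lower by the same rule, 18.8% were higher and 43.5% changed in either direction. The median log2 fold change of the 7 genes was -1.68, beside a median of 0.0 over all genes tested. For 4 of the 7 genes every D69A tumor lay below every WT tumor, which held for 17.4% of all genes tested. In a further fit 3 tumors that stood out in skeletal muscle transcripts (WT tumors 3 and 4 and D69A tumor 1) were left out, and 5 of the 7 genes were called lower, without Cfd. Of all 13816 genes tested in that fit, 2615 were lower and 1727 higher.

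**Figure D1:**
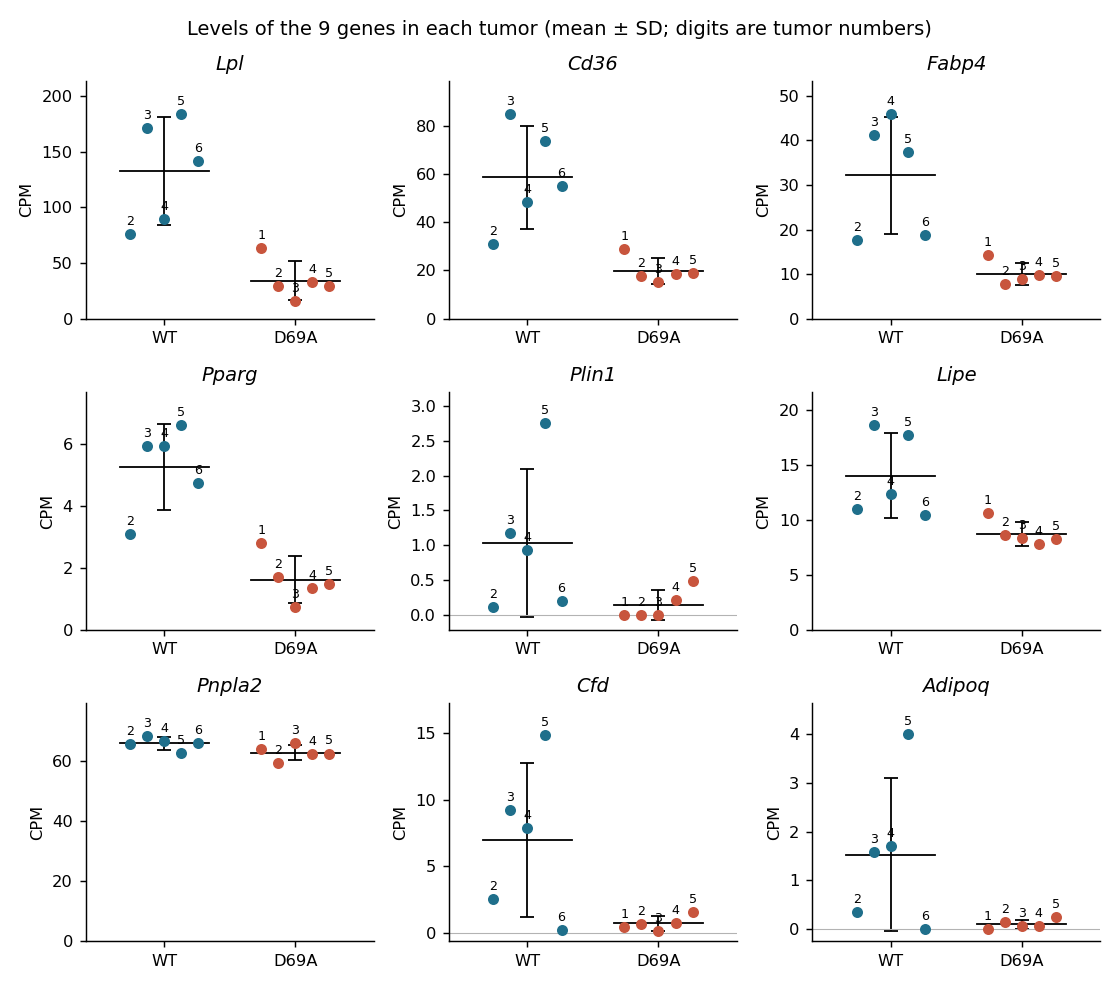
Level of each of the 9 genes in CPM (vertical axis, starting at or just below 0) in 5 WT and 5 D69A tumors. Points are tumors, labelled with their number, and horizontal lines with bars give the mean ± SD; Lpl, Cd36, Fabp4 and Pparg do not overlap between groups, whereas WT tumor 6 is at 0 CPM for Adipoq.

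Among the uptake genes, Lpl (lipoprotein lipase; chromosome 8, 68880491 to 68907448 in mm10) had the highest CPM in WT tumors. CPM are counts scaled to the size of each library, with no correction for gene length. Lpl stood at 75.7, 172, 89.2, 184 and 142 CPM in WT tumors 2 to 6 and at 63.8, 29.7, 15.5, 33.1 and 29.0 CPM in D69A tumors 1 to 5. The groups did not overlap, D69A tumor 1 was closest to the WT tumors, and WT tumors 2 and 4 were the lowest of their group. The means were 132 ± 48.4 and 34.2 ± 17.8 CPM (SD, n = 5 each), a log2 fold change of -1.95 (SE 0.36, edgeR adjusted p = 0.00182) or 3.87-fold lower. With 95% confidence the fold lay between 2.23 and 6.73.

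Cd36, the fatty acid translocase and scavenger receptor (chromosome 5, 17781690 to 17888801), followed the same order of groups. Its level was 30.8, 84.9, 48.5, 73.6 and 54.8 CPM in WT tumors 2 to 6, and 28.8, 17.6, 15.0, 18.4 and 18.9 CPM in D69A tumors 1 to 5. The groups were separated by a narrow margin, between WT tumor 2 and D69A tumor 1. The log2 fold change was -1.57 (SE 0.26, edgeR adjusted p = 0.00118), or 2.96-fold lower.

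Fabp4, the intracellular fatty acid carrier of fat cells (chromosome 3, 10204088 to 10208576), had 17.5, 41.3, 46.0, 37.3 and 18.7 CPM in WT tumors 2 to 6. D69A tumors 1 to 5 had 14.3, 7.88, 8.89, 9.76 and 9.50 CPM. WT tumors 3, 4 and 5 were high, WT tumors 2 and 6 came close to D69A tumor 1, and the groups did not overlap. The log2 fold change was -1.68 (SE 0.29, edgeR adjusted p = 0.00132), or 3.20-fold lower. Its chromosomal neighbors moved the other way. Fabp5, a fatty acid binding protein of epidermis and of many other cells, lies in the same gene cluster (chromosome 3, 10012548 to 10016607) and rose 1.45-fold, from 644 ± 112 to 937 ± 70.7 CPM (SD, n = 5 each; edgeR adjusted p = 0.00336). Pmp2, a lipid binding protein of myelin from the same cluster, rose 2.01-fold from 1.30 to 2.62 CPM, although 86.9% of its exon sequence is shared with the annotated gene Gm37389 on the same strand. Fabp12 had at most 7 counts in any tumor and was not tested, and Fabp9 was not among the genes of the count table. Of the 3 tested genes of this cluster 1 fell, which was Fabp4, and 2 rose, beside 24.7% and 18.8% of all genes tested.

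The regulator gene Pparg (chromosome 6, 115360951 to 115490399) was low and fell with the uptake genes. WT tumors 2 to 6 held 120, 217, 223, 247 and 124 reads of Pparg, and D69A tumors 1 to 5 held 105, 61, 24, 46 and 54. Scaled to library size these were 3.10 to 6.61 CPM in WT and 0.721 to 2.81 CPM in D69A tumors, without overlap. The log2 fold change was -1.70 (SE 0.33, edgeR adjusted p = 0.00230), or 3.26-fold lower. WT tumor 2 and D69A tumor 1 were again the pair nearest to each other.

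**Figure D2:**
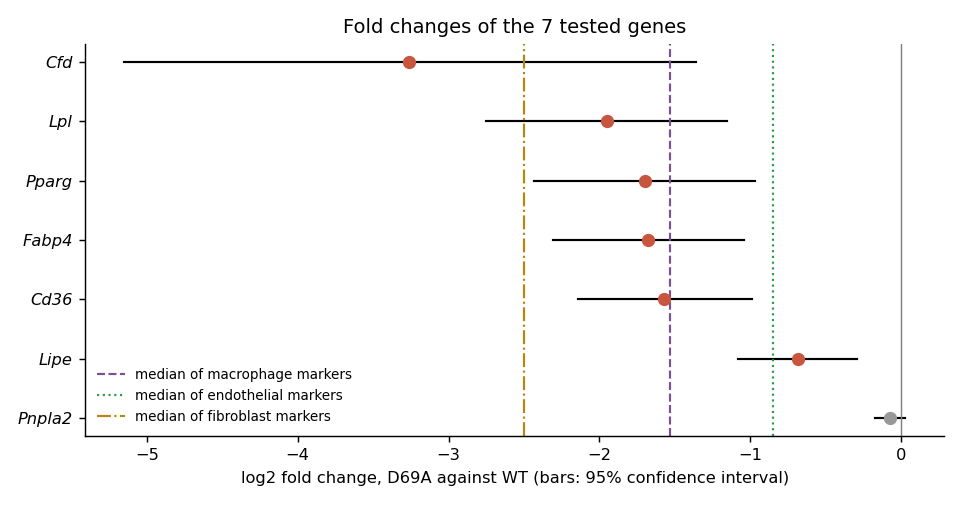
Log2 fold change of D69A against WT (horizontal axis) for the 7 tested genes, with 95% confidence intervals as bars. Red points passed the threshold, the grey point (Pnpla2, -0.07) did not, and vertical lines give the median over macrophage (-1.53), endothelial (-0.85) and fibroblast (-2.50) markers.

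The lipolysis genes split. Lipe, the hormone-sensitive lipase (chromosome 7, 25379527 to 25398710), had 11.0, 18.6, 12.4, 17.7 and 10.4 CPM in WT tumors 2 to 6 and 10.6, 8.66, 8.35, 7.81 and 8.28 CPM in D69A tumors 1 to 5. The ranges overlapped, since D69A tumor 1 lay above WT tumor 6. Lipe was 1.61-fold lower (log2 fold change -0.68, SE 0.18, edgeR adjusted p = 0.0105), and 15.6% of its exon sequence lies opposite exons of 4732471J01Rik, so reads of these genes cannot be told apart unless strand was used in counting.

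Pnpla2, which encodes the adipose triglyceride lipase that takes the first fatty acid off a stored triglyceride, varied little (chromosome 7, 141455198 to 141460743). Its level was 65.8, 68.5, 66.9, 62.7 and 66.2 CPM in WT tumors 2 to 6 and 64.3, 59.3, 66.3, 62.3 and 62.6 CPM in D69A tumors 1 to 5. The groups overlapped and the log2 fold change was -0.07 (SE 0.05, edgeR adjusted p = 0.256). The 95% confidence interval ran from -0.17 to 0.03, so a decrease beyond 1.12-fold lies outside it. Many cell types use this lipase.

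Plin1, the droplet coat protein that gates lipolysis in fat cells (chromosome 7, 79720218 to 79732903), had too few reads to be tested with the low-count filter. WT tumors 2 to 6 held 4, 43, 35, 103 and 5 reads, and D69A tumors 1 to 5 held 0, 0, 0, 7 and 18. WT tumors 3, 4 and 5 were high, while WT tumors 2 and 6 lay within the range of D69A tumors. Without the filter its log2 fold change was -2.84 (SE 1.13) and did not pass the threshold in edgeR (adjusted p = 0.0747), whereas DESeq2 called it (adjusted p = 0.0424). Unfiltered fits without WT tumor 2 (adjusted p = 0.0434) or without D69A tumor 5 (adjusted p = 0.0315) brought it past the threshold in edgeR, and those without another tumor did not.

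The genes of secreted fat cell products varied widely among WT tumors. Cfd, complement factor D (chromosome 10, 79890853 to 79892655), was counted 98, 338, 296, 554 and 6 times in WT tumors 2 to 6 and 18, 24, 5, 25 and 58 times in D69A tumors 1 to 5. That is 2.53, 9.24, 7.86, 14.8 and 0.230 CPM in WT and 0.481, 0.668, 0.150, 0.740 and 1.57 CPM in D69A tumors. WT tumors 2 to 5 lay above all D69A tumors, and WT tumor 6 lay below 4 of the D69A tumors. The fitted change was 9.55-fold lower with a 95% confidence interval from 2.56 to 35.6 (log2 fold change -3.26, SE 0.86, edgeR adjusted p = 0.0111). The call was lost with limma-voom (adjusted p = 0.118) and in edgeR when the 3 muscle-rich tumors were dropped (adjusted p = 0.083).

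Adipoq, the adiponectin gene, typical of fat cells (chromosome 16, 23146536 to 23158028), was too low for the filtered test. It had 14, 58, 64, 149 and 0 reads in WT tumors 2 to 6 and 0, 5, 2, 2 and 9 reads in D69A tumors 1 to 5, in sum 285 against 18. WT tumors 2 to 5 all lay above the highest D69A tumor, and WT tumor 6, with the smallest library, had none, which allows up to 0.115 CPM at 3 reads. Without the low-count filter its log2 fold change was -3.86 (SE 1.06, edgeR adjusted p = 0.0158, and 0.000771 with DESeq2). Leaving out the 3 tumors highest in muscle transcripts gave -3.46 and an adjusted p of 0.0757 in the same unfiltered edgeR test, so the call was lost.

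Ranked by length-scaled level in WT tumors (counts per kilobase of exon, scaled to the same total in every tumor, as in TPM), Pnpla2 came first with 72.9 ± 2.87, then Cd36 with 54.2 ± 19.4, Lpl with 42.1 ± 15.1, Cfd with 24.9 ± 20.5 and Fabp4 with 23.8 ± 9.55. Lipe (7.93 ± 2.12), Pparg (5.93 ± 1.49), Adipoq (3.65 ± 3.71) and Plin1 (0.732 ± 0.753) were lower (SD, n = 5 each). Ranges over WT tumors overlapped between every pair of neighbors in this order except Fabp4 and Lipe. In D69A tumors Pnpla2 stayed at 69.7 ± 2.77 while Cd36 stood at 18.5 ± 5.59, Lpl at 11.1 ± 6.13 and Cfd at 2.63 ± 1.89, so that Cfd came sixth. With the longest transcript as length, Lpl came first in WT tumors at 81.2, since its annotated exons include 10478 bases and its longest transcript 4115.

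The labels call the tissue tumor and its cells melanoma cells, and the melanocyte markers were abundant, with a summed level of 20990 to 25789 CPM in WT and 29824 to 36445 CPM in D69A tumors. Defining fat cell markers were scarce. The 8 fixed markers Adipoq, Plin1, Cidec, Lep, Retn, Adig, Plin4 and Cidea summed to 2.53, 11.1, 9.64, 17.9 and 0.421 CPM in WT tumors 2 to 6, and to 0.909, 0.724, 0.390, 0.562 and 2.23 CPM in D69A tumors 1 to 5. WT tumor 6 thus lay within the D69A range for fat cell markers, and D69A tumor 5 lay close to WT tumor 2. Adig and Cidea were at 0 in all D69A tumors but hardly higher in WT tumors 2 to 6, with 0, 0, 2, 3 and 0 reads of Adig and 0, 3, 5, 0 and 0 of Cidea. Only 2 of the 8 could be tested, and both fell, where 24.7% of all genes tested did. Plin4, a droplet coat protein, was 7.81-fold and Cidec, which fuses droplets, 6.55-fold lower (edgeR adjusted p = 0.0156 and 0.0305). Both calls were lost with limma-voom (adjusted p = 0.158 for Plin4 and 0.0547 for Cidec) and, in edgeR, after dropping the 3 muscle-rich tumors (adjusted p = 0.0721 and 0.100). Cidec was also not called by edgeR without WT tumor 3 or 5 or D69A tumor 2, 3 or 4, with an adjusted p of up to 0.0878 (without WT tumor 5).

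Lpl, Cd36, Fabp4 and Pparg did not share this pattern in WT tumor 6. That tumor had 142 CPM of Lpl, 54.8 CPM of Cd36, 18.7 CPM of Fabp4 and 4.74 CPM of Pparg, each above all D69A tumors. Fabp4 came close to D69A tumor 1, at 14.3 CPM. The same WT tumor had 0 reads of Adipoq and 6 of Cfd. The summed level of 12 fixed macrophage markers was 864, 2002, 1084, 2209 and 1224 CPM in WT tumors 2 to 6 and 829, 597, 564, 652 and 604 CPM in D69A tumors 1 to 5. By Lpl, by macrophage markers and by fibroblast markers WT tumors took the same order, from tumor 2 through 4, 6 and 3 to 5. The order differed for Cd36 (2, 4, 6, 5 and 3) and for Pparg (2, 6, 4, 3 and 5). Fabp4 also took another order, since it was highest in WT tumor 4, the second lowest WT tumor in macrophage markers. D69A tumor 1 was the highest of its group in Lpl, Cd36, Fabp4 and both marker sums. Beside the marker counts that follow, 24.7% of all genes tested fell. Of the 12 macrophage markers 10 fell, with a median log2 fold change of -1.53, and Cd68 and Mertk did not pass the threshold. Endothelial markers fell in 11 of 12 cases with a median of -0.85, and their summed level was 470 to 552 CPM in WT and 338 to 449 CPM in D69A tumors. Fibroblast markers fell in 10 of 10 cases with a median of -2.50, and summed to 2240 to 6019 CPM in WT and 355 to 1341 CPM in D69A tumors. The part of these cells in the lower levels of Lpl, Cd36, Fabp4 and Pparg was not tested.

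**Figure D3:**
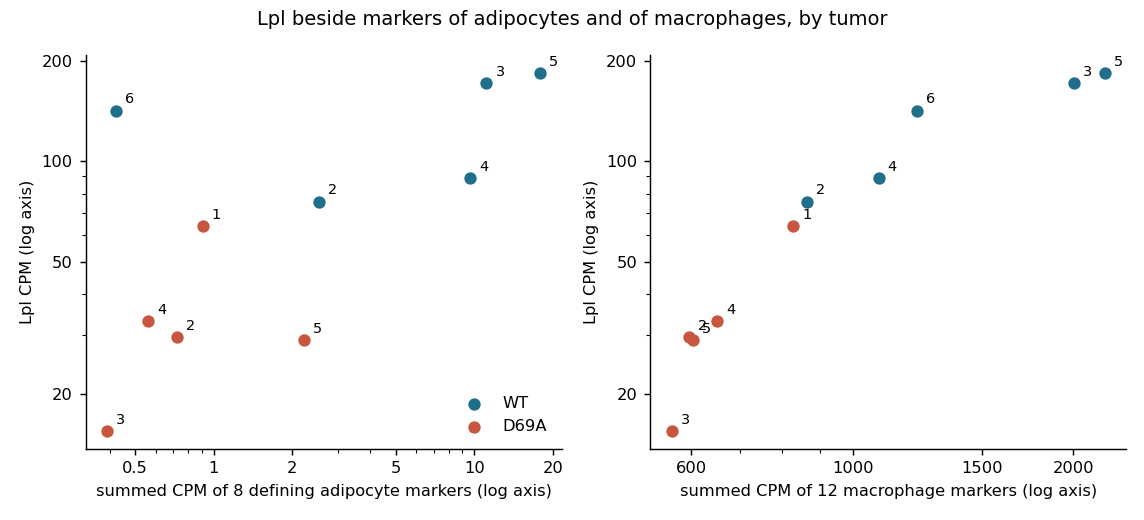
Lpl level (vertical, CPM, log axis) against the summed CPM of 8 defining adipocyte markers (left) and of 12 macrophage markers (right, both log axes), 1 point per tumor with its number. WT tumor 6 has 142 CPM of Lpl with 0.421 CPM of adipocyte markers, while by macrophage markers it lies between WT tumors 4 and 3.

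Skeletal muscle transcripts differed widely among tumors. Their summed level over 12 fixed markers ran from 5.32 to 1921 CPM in WT tumors and from 3.20 to 644 CPM in D69A tumors, highest in WT tumors 4 and 3 and D69A tumor 1. Of these markers 0 of 12 passed the threshold in edgeR, where 43.5% of all genes tested did. The count was also 0 at an unadjusted p under 0.05, with DESeq2 and with limma-voom. Their median log2 fold change was nevertheless -2.09, with wide 95% confidence intervals, such as -5.55 to 1.55 for Acta1. These counts of 0 therefore do not show that muscle transcripts were equal between the groups. Without those 3 tumors the log2 fold changes were -2.32 for Lpl, -1.60 for Cd36, -1.44 for Fabp4, -1.87 for Pparg and -0.66 for Lipe, with edgeR adjusted p from 0.00238 to 0.0331. Fabp4 was highest in WT tumor 4, which was also highest in muscle transcripts, and Adipoq and Cfd were highest in WT tumor 5, which had 39.3 CPM of muscle markers. Of 10 keratinocyte and sebaceous markers 8 were among the genes of the table and 4 were tested. Lgals7, a galectin gene of stratified epithelium, fell 3.11-fold, Fasn, the fatty acid synthase gene, rose 1.83-fold, and Dsp and Perp did not pass. The summed level of these markers was 212 to 434 CPM in WT and 546 to 682 CPM in D69A tumors, most of it Fasn. Among the untested keratin genes, Krt5 had 0 reads in 9 of the 10 tumors, and Krt10 had 4 to 15 reads in each WT tumor and 0 to 6 in each D69A tumor. The part of muscle and skin tissue in the levels of the 9 genes was not tested beyond the fit without those 3 tumors.

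In the wider list of fatty acid uptake and binding genes, 7 of 18 tested genes (19 fixed) fell, where 24.7% of all genes tested did, and 3 rose, a share near the 18.8% over all genes. The median log2 fold change was -0.31. Angptl4, a secreted inhibitor of lipoprotein lipase, fell with its target by 2.68-fold (20.2 ± 10.3 against 7.56 ± 1.48 CPM; SD, n = 5 each). Gpihbp1, the capillary protein that anchors lipoprotein lipase, did not pass the threshold at 5.85 ± 1.15 and 4.78 ± 0.681 CPM. Lmf1, needed for the lipase to fold, rose 1.32-fold, and Acsl3, which activates fatty acids by joining them to coenzyme A, rose 2.05-fold from 74.0 ± 17.9 to 152 ± 24.2 CPM (edgeR adjusted p = 0.00104).

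**Figure D4:**
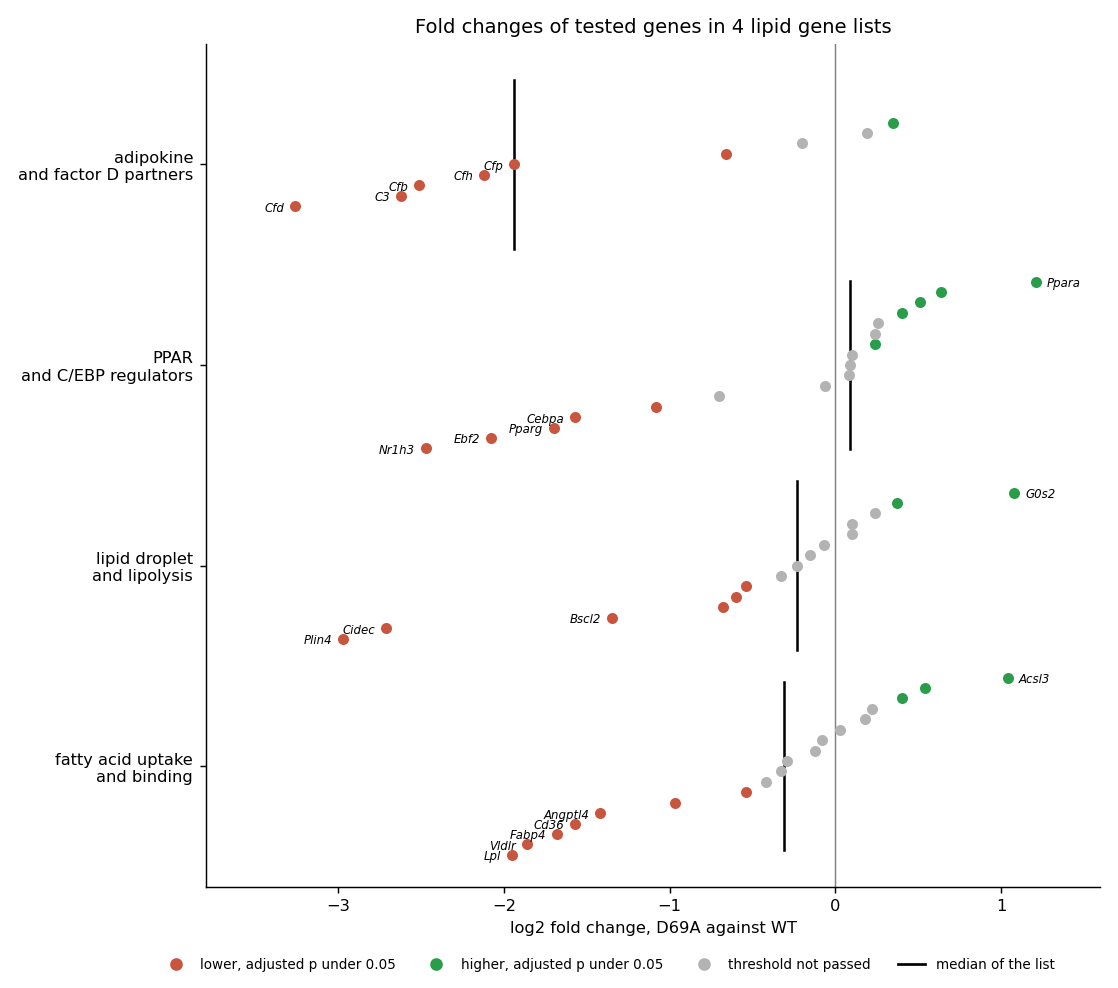
Log2 fold change of D69A against WT (horizontal axis) of the tested genes in 4 fixed lists (rows; the height within a row only spreads the points). Red points fell and green points rose past the threshold, grey points did not pass, black lines give medians (-1.94, 0.09, -0.23 and -0.31 from top to bottom), and genes beyond -1.2 or 0.9 are named.

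Of the lipid droplet and lipolysis genes, 15 tested out of 18 fixed, 6 fell and 2 rose, beside 24.7% and 18.8% of all genes tested, with a median of -0.23. Bscl2, which encodes the droplet assembly protein seipin, was 2.55-fold lower (edgeR adjusted p = 0.00221), and Plin2, the droplet coat of most cells, 1.45-fold lower. G0s2, an inhibitor of the lipase encoded by Pnpla2, rose 2.12-fold, from 2.36 ± 0.882 to 5.01 ± 0.721 CPM. Plin3 rose 1.29-fold from 145 ± 17.1 to 188 ± 15.8 CPM, a call that did not hold without the 3 tumors highest in muscle transcripts (edgeR adjusted p = 0.056). Abhd5, the activator of that lipase, stood at 60.9 ± 3.34 and 65.2 ± 3.61 CPM and did not pass (edgeR adjusted p = 0.183), except without D69A tumor 1 (0.0461). Without the 3 muscle-rich tumors 3 genes of the list fell and 1 rose, beside 2615 lower and 1727 higher of all 13816 genes tested in that fit.

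Pparg fell while the other 2 PPAR genes rose. In the list of PPAR and C/EBP regulators 5 of 17 tested genes fell and 5 rose, with a median of 0.09, and the share that fell was near the 24.7% over all genes tested (18.8% rose). Ppara, the PPAR of fatty acid oxidation, rose 2.32-fold from 1.44 ± 0.298 to 3.34 ± 0.625 CPM (edgeR adjusted p = 0.00130), and Ppard rose 1.18-fold. The Ppard call was lost without WT tumor 3, WT tumor 4 or D69A tumor 5 (edgeR adjusted p of 0.0505, 0.0502 and 0.0643) and without the 3 muscle-rich tumors (0.0671). Rxra, which encodes a heterodimer partner of PPARs, did not pass, with a log2 fold change of 0.08 and a 95% confidence interval from -0.06 to 0.23. Cebpa and Cebpd, transcription factors of fat cell and of myeloid differentiation, fell 2.96-fold and 2.12-fold. Nr1h3, the oxysterol receptor LXR alpha of macrophages and fat, fell 5.55-fold from 8.48 ± 3.10 to 1.52 ± 1.11 CPM, while Srebf1, a regulator of lipid synthesis, rose 1.42-fold.

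Among the partners of adiponectin and factor D, 6 of 9 tested genes fell and 1 rose, beside 24.7% and 18.8% of all genes tested, with a median of -1.94, and 12 had been fixed. The complement genes fell together with Cfd: C3, whose product is split by the convertase that factor D completes, was 6.13-fold lower (223 ± 121 against 36.3 ± 15.6 CPM; SD, n = 5 each), Cfb, the substrate of factor D, 5.69-fold and Cfp, encoding properdin, 3.83-fold. Unlike Cfd, all 3 had every D69A tumor below every WT tumor. Adipor1, an adiponectin receptor gene, rose 1.27-fold from 328 ± 13.4 to 418 ± 37.6 CPM. In the list of adipocyte identity genes 7 of 8 tested fell out of 17 fixed, beside 24.7% of all genes tested. The other 9 had too few reads to be tested. Cfd, Lipe, Fabp4 and Pparg, described above, are among the 7. With limma-voom the count was 3, where 3378 of all 13798 genes fell. Without the 3 tumors highest in muscle transcripts it was 3, where 2615 of 13816 fell. With DESeq2, run on all genes with reads, it was 11 of 17, where 3799 of 17697 fell. Lep and Retn, which encode leptin and resistin, had at most 38 and 51 reads in a WT tumor and at most 3 and 13 in a D69A tumor.

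The genes most like each tested gene were sought among 12629 others by the correlation of log2 CPM over the 10 tumors after each group mean had been subtracted. For Lpl they were Igsf6, Cmklr1 and Tril (Pearson r of 0.978, 0.964 and 0.957), and for Cd36 they were Tlr7, Lyn and Gm15448 (0.988, 0.985 and 0.985). Tlr7 encodes a sensor of single-stranded RNA in myeloid and B cells, and Lyn a kinase of the same cells. Which cells of these tumors express the genes named here, Tlr7 and Lyn included, was not examined. For Pparg they were Psmb9, Heyl and Penk (0.964, 0.962 and 0.962), and for Fabp4 they were Pitpnm1, Gli1 and Dguok (0.973, 0.973 and 0.972). Lipe was most like Tgfb1 (0.973) and Cfd most like Aasdh (0.955). For Pnpla2 the highest value was lower, 0.883 with Spsb2. All values come from the same 10 libraries and are the highest of 12629, so they describe these tumors only.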

How the data were processed

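RNA-seq counts from 10 bulk tumors were used, 5 WT and 5 D69A. The values deposited by the authors were whole-number read counts per Ensembl gene, not scaled between tumors. Per the submitters' processing notes, fastp, HISAT, Bowtie and RSEM and the build mm10 were used. Neither their roles and versions nor the annotation or strand setting is given in the sources used here, and RSEM counts can be rounded estimates. Total counts ran from 25904345 to 37578722, and on the scaled CPM used here 3 reads came to between 0.0775 and 0.115, floors that cover counting error only. Symbols, exon lengths and coordinates came from GENCODE mouse release 21 (17670 of 17737 identifiers matched). The smallest chi-square per degree of freedom between tumors of a group was 13.9, so no 2 agreed within sampling noise.

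Genes were filtered with filterByExpr, scaled by TMM and tested with edgeR 4.0.16 in R 4.3.3 (quasi-likelihood, Benjamini-Hochberg over 13798 genes, threshold 0.05). CPM and log2 CPM (prior count 2) used the TMM factors. On simulated counts for these 13798 genes, with 200 changed, 90.6% of genes changed 4-fold were recovered. So were 77.6% of those changed 2-fold and 50.7% of those changed 1.5-fold, while 7.69% of calls fell on genes left unchanged. In the tumors 43.5% of genes tested were called, far more than the 200 simulated, so these shares may not hold for that fit. Alternatives were DESeq2 1.42.0, limma-voom (limma 3.58.1), other scalings and filters, the replicate number as a block, leaving out each tumor and leaving out the 3 tumors highest in muscle markers. The 9 genes, the lists and the tests were chosen with earlier results of these data known. Genes named from a list are the 3 with the smallest p in each direction, the Fabp cluster and the genes most like a member; Angptl4, Gpihbp1, Plin4, Cidec, Abhd5, Rxra, Ppard, Lep, Retn, Cd68, Mertk, Krt5, Krt10, Dsp, Perp, Lgals7 and Fasn were chosen after their values were seen.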

Additional observations from a re-analysis of the deposited data

Results flagged for a closer look

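Each of the 9 genes was examined in each group for a tumor far from the other 4, 18 groups of values in all, and 1 was singled out. Cd36 in D69A tumors was highest in tumor 1, at 28.8 CPM against 15.0 to 18.9 CPM in the other 4, and the gap to the nearest tumor was 0.718 of the range, above the critical value for groups of 5. Chance marks about 1 in 20 such groups. D69A tumor 1 was also the highest of its group in Lpl, Fabp4, Pparg and Lipe and in the summed macrophage, endothelial, fibroblast and skeletal muscle markers. Without it the log2 fold change of Cd36 was -1.73 (edgeR adjusted p = 0.000551).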

How the results depend on the processing

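Lpl, Fabp4, Pparg, Cd36 and Lipe kept direction and call under all 19 alternatives, with log2 fold changes from -2.32 to -1.72, -1.90 to -1.44, -2.03 to -1.47, -1.73 to -1.39 and -0.82 to -0.55. Pnpla2 passed in none (-0.11 to -0.04), and Cfd lost its call in 2 (-3.75 to -2.73 over all). The number of the 9 genes called lower ran from 5 to 8. Genes higher over the whole table came to 1727 without the 3 tumors highest in muscle markers, against 2594. Adipocyte identity genes called lower were 4 with at least 1 CPM in 5 tumors, 3 with limma-voom, 11 with DESeq2 and 3 without the 3 muscle-rich tumors, against 7. Without these tumors droplet genes called were 3 lower and 1 higher, against 6 and 2. Adipokine partners called higher were 2 with no low-count filter and with DESeq2, against 1. Leaving out single tumors gave 3 to 5 uptake genes higher, 2 to 4 droplet genes higher and 1 to 2 adipokine partners higher (the upper ends without WT tumor 6, WT tumor 4, and WT tumor 5, D69A tumor 1 or D69A tumor 3). The causes of these shifts were not tested. The stricter filter also kept fewer genes, and the reduced set held fewer tumors. With the longest transcript as length the WT level was 81.2 for Lpl and 63.6 for Pnpla2. Shared numbers 2 to 5 did not pair the tumors (correlations of deviations 0.18, -0.42, 0.20 and 0.17), and with the replicate number as a block 6 of the 7 tested genes were lower, with 3218 genes lower and 2246 higher in all. In the block fit D69A tumor 1 and WT tumor 6 have no tumor of the same number in the other group. Only tumors 2 to 5 of each group therefore carried that comparison. Genes higher made up 43.2% of calls, 36.5% with upper quartile scaling and 33.6% with library size only, and the median of all genes moved by less than 0.1. Plin1 and Adipoq had too few reads for the filtered test, and Plin4 and Cidec for the filter at 1 CPM in 5 tumors.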
